A study of Mus musculus with 4 samples.

Results

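Scavenger receptors are surface proteins with which macrophages bind and take up modified lipoproteins, bacteria, dying cells and worn-out plasma proteins. They are grouped by structure rather than by descent, so that collagen-like, lectin-like and cysteine-rich proteins share the name, and their ligands overlap. In macrophages the set that is displayed differs with the state of the cell: Marco is known as a gene induced by microbial products, and Cd163 and Mrc1 are widely used as labels of resident and alternatively activated macrophages.

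The genes described here are 9 of the 21878 listed: Marco, Msr1 and Colec12 of the collagen-like class A, Scarb1 of class B, the lectin-like Olr1 and Mrc1, Stab1 of class H, and Cd163 and Cd5l of the cysteine-rich (SRCR) family. Cd5l is a secreted protein and not a receptor. They were taken by symbol from the table of counts, and the set was chosen by the contrast reported here, because Marco was higher and Cd163 and Mrc1 were lower in the anti-Act1 columns. The differences of these 9 genes between the groups are therefore given as a description, with no test of single genes.

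Macrophages were grown with M-CSF from the bone marrow of C57BL/6 mice and shared a well with the mouse colon cancer line MC38, kept on the other side of a porous insert. There were 2 groups with 2 libraries each, from wild type mice (WT) and from mice named anti-Act1, in which Act1, an adaptor protein of IL-17 receptor signalling encoded by Traf3ip2, was knocked down in macrophages. The labels give an age of 8 weeks and 48 h of coculture, all 4 libraries came from cocultures, and the sequence element that drives the knockdown is not given in the sources used here. The paper's text gives another time of coculture and a wider range of ages than the labels. The methods speak of biological replicates, but no label names the animals, so the errors given measure the spread between these libraries, which may be technical.

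The libraries held between 55435063 and 75062945 counted reads, and both WT libraries were deeper than both anti-Act1 libraries. A count of 0 allows up to 3 counts, which is 0.0395 to 0.0549 CPM (counts relative to the TMM-scaled library size) and covers counting error only. Traf3ip2 was at 6.98 and 7.54 CPM in the WT libraries and at 9.63 and 7.84 CPM in the anti-Act1 libraries (log2 fold change 0.27, SE 0.12, edgeR adjusted p = 0.117, and 0.41 with adjusted p = 0.0343 without anti-Act1 replicate 2). The label anti-Act1 did not go with a lower Traf3ip2 transcript, Act1 protein was not measured in these libraries, and "WT" and "anti-Act1" stand below for libraries labelled WT and libraries labelled anti-Act1. The Y-linked gene Ddx3y had 5741 and 7360 counts in the WT libraries and 0 in both others, so that the sex of the mice and the label cannot be told apart. This holds for all 9 genes, although none of them lies on X or Y. The 8 macrophage markers were all detected and summed to 24570 to 25551 CPM in WT and to 25415 to 26254 CPM in anti-Act1 libraries. Most of this was Lyz2, at 16809 and 15809 CPM in WT and at 17133 and 17734 CPM in anti-Act1 libraries. Lyz2 and Cd14 were higher in both anti-Act1 libraries, Adgre1, Csf1r, Itgam, Fcgr1 and Mertk were lower in both, and Cd68 overlapped. Of 6 markers of epithelial tumour cells, Epcam, Krt8, Krt18, Krt19 and Cldn4 had at most 3 counts in every library, and the list summed to at most 0.464 CPM. In RNA from a whole culture, fewer cells of a kind and less RNA per cell cannot be told apart.

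The promoters of Marco, the most raised of the 9 in the anti-Act1 libraries, and of Cd163 and Mrc1, the most lowered, are shown so that the letters around their starts can be compared. The strands below run 5′ to 3′ and hold the 250 bases before the transcript start of RefSeq's promoter entry (GRCm38.p6) for Marco (chr1:120505025-120505274, minus strand), Cd163 (chr6:124304401-124304650, plus strand) and Mrc1 (chr2:14229164-14229413, plus strand). Capitals mark matches, on either strand, to a PU.1 core (GAGGAA) or an NF-kB motif (GGGANNNNCC).
Marco: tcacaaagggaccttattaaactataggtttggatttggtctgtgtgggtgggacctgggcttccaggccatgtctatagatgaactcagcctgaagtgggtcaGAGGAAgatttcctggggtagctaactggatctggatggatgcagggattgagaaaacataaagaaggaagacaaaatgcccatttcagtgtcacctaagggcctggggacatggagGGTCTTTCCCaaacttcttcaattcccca
Cd163: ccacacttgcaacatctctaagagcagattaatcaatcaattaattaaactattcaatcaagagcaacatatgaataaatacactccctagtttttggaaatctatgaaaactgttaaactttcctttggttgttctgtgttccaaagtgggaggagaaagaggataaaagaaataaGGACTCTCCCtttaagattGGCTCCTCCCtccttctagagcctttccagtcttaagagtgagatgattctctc
Mrc1: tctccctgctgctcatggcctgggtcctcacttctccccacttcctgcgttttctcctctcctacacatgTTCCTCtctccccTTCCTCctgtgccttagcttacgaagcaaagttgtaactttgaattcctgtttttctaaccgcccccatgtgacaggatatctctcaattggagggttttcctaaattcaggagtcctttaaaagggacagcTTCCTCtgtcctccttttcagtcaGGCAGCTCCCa

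Promoter windows of 300 bases (250 before to 50 after the start) were at hand for 6 of the 9 genes, the 3 shown, Cd5l, Olr1 and Stab1, and 11 motifs were searched in them. The start used there is the end of the RefSeq gene span for Marco, Mrc1 and Cd5l, but lies 15 bases inside it for Cd163, 10 for Stab1 and 185 for Olr1, so positions before the start in these windows can lie within a longer transcript. PU.1 is the Ets factor on which macrophage development depends, and its core GAGGAA stood in 5 of the 6 windows against 28.3% of 32851 RefSeq promoters, with first bases at -146 in Marco, at -76 in Olr1, at -180, -167 and -35 in Mrc1, at -66 in Cd5l and at -30 in Stab1. The Cd163 window did not hold these letters. The NF-kB letters were found in 3 of the 6, at -29 in Marco, at -11 in Mrc1 and at -73 and -54 in Cd163, against 20.7% of all promoters. They thus occurred in a promoter of a gene that was higher and in promoters of genes that were lower. The AP-1 letters TGANTCA were found at -60 in Olr1 alone (7.81% of all promoters), within the gene span, the Maf motif TGCTGA in Cd5l (-54 and -46) and Stab1 (-43; 19.5% of all), and the STAT6 motif TTCNNNNGAA at -250 in Cd5l (6.95% of all). None of the 6 windows held an antioxidant response element (TGACNNNGC, in 12.4% of all promoters), a STAT motif (TTCNNNGAA, 8.3%), an interferon-stimulated response element (GAAANNGAAA, 3.44%), a C/EBP motif (TTGCNNAA, 10.8%), TATAAA (13.6%) or the E-box CACGTG (7.15%). None of the matched stretches in these 6 windows overlapped another. A match to letters is a description and not a binding site.

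All 9 genes passed the filter on low counts. In anti-Act1 libraries Marco, Olr1 and Colec12 were higher, Cd163, Mrc1, Stab1 and Msr1 were lower, and Scarb1 and Cd5l differed least. At an edgeR adjusted p under 0.05, 3 of the 9 were called higher, where 10.9% of 12494 tested genes were, and 4 were called lower, where 9.76% were. The WT and anti-Act1 libraries did not overlap in CPM for any of the 9, which was also so for 57.1% of all tested genes. As the genes were selected on this contrast, nothing is read from these counts. Their median log2 fold change was -0.14, beside -0.005 over all tested genes, and the median of its absolute size was 0.63 beside 0.12. An absolute log2 fold change above 1 was found for 3 of the 9 (Marco, Olr1 and Cd163) and for 3.33% of all tested genes. These 3 were also the least abundant of the 9. The selection on this contrast bears on the sizes of the fold changes too, and nothing is read from their comparison with all genes.

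**Figure D1:**
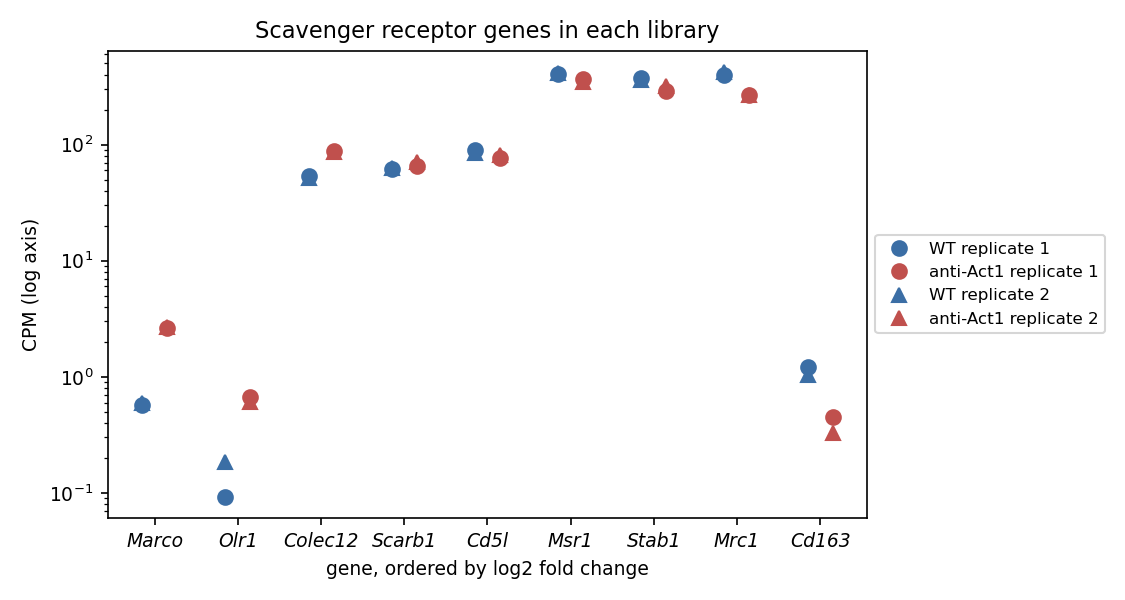
CPM of the 9 genes on a log axis, with 1 point per library, in blue for WT and in red for anti-Act1, circles for replicate 1 and triangles for replicate 2. Marco, Olr1 and Cd163 lie at or under 2.69 CPM in all libraries, the other 6 genes at or above 51.1 CPM, and no gene's groups overlap.

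Class A receptors are trimers with a collagen-like stalk, and they bind polyanions. Marco, which binds unopsonized bacteria and particles and lies on chromosome 1 (120474538 to 120505024, GRCm38.p6), had 37 and 45 counts in the WT libraries and 161 and 147 in the anti-Act1 libraries, or 0.573 and 0.593 against 2.61 and 2.69 CPM. The replicates lay close together, and the lowest anti-Act1 library was above the highest WT library by 2.14 on the log2 scale. The log2 fold change was 2.18 (SE 0.27), a level 4.53-fold higher, and it lay between 2.15 and 2.21 under all alternatives on counts. On log2(FPKM + 1) it was 0.84, since the added 1 exceeds the WT level of the gene.

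Msr1 encodes the macrophage class A receptor for acetylated lipoproteins (chromosome 8, 39543232 to 39642750) and was the most abundant of the 9. It had 406 and 415 CPM in the WT libraries and 365 and 349 CPM in the anti-Act1 libraries. Both anti-Act1 libraries were below both WT libraries, by a small margin, and the log2 fold change was -0.20 (SE 0.05), a level 1.15-fold lower, with -0.17 when anti-Act1 replicate 2 was left out. Marco and Msr1, the class A receptors that macrophages are best known for, thus stood on opposite sides, and Marco went from 0.201% and 0.204% of the Msr1 level per length to 1.02% and 1.1%.

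Colec12, a class A member with a C-type lectin domain that is better known from vascular endothelium, had 53.2 and 51.1 CPM in WT and 87.9 and 85.8 CPM in anti-Act1 libraries. It had the smallest SE relative to its size among the genes that were higher, with a log2 fold change of 0.74 (SE 0.06), a level 1.67-fold higher. The value lay between 0.68 and 0.76 in all 13 alternatives. Of 6 endothelial markers, Tie1 and Emcn had at most 3 counts in every library, and the list summed to 53.0 to 54.0 CPM in WT and 52.1 to 54.1 CPM in anti-Act1 libraries, mostly from Pecam1 and Kdr. The part of endothelial cells in the Colec12 value was not tested.

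Scarb1, the class B receptor that exchanges cholesterol with high density lipoprotein (chromosome 5, 125277087 to 125341094), had 62.2 and 62.3 CPM in WT and 65.5 and 71.0 CPM in anti-Act1 libraries. The groups did not overlap, but by 0.07 on the log2 scale only, and the anti-Act1 replicates differed from each other by more than this. The log2 fold change was 0.13 (SE 0.06), and it was 0.07 when anti-Act1 replicate 2 was left out and 0.19 when anti-Act1 replicate 1 was.

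The lectin-like receptors also went in opposite directions. Olr1, the receptor for oxidized low density lipoprotein LOX-1 (chromosome 6, 129479150 to 129507350), had 6 and 14 counts in the WT libraries and 41 and 33 in the anti-Act1 libraries, or 0.0929 and 0.184 against 0.664 and 0.604 CPM. The WT libraries differed from each other by 0.99 on the log2 scale, and the nearest libraries of the groups by 1.71. The log2 fold change was 2.15 (SE 0.56), a level 4.45-fold higher, but it rests on few reads: it was 1.77 when WT replicate 1 was left out and 2.75 when WT replicate 2 was.

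Mrc1, the mannose receptor CD206 (chromosome 2, 14229414 to 14332023), takes up glycoproteins with mannose ends and is a common marker of alternatively activated macrophages. It had 399 and 422 CPM in the WT libraries and 265 in both anti-Act1 libraries. With 14479 to 31999 counts a library it was among the best measured of the 9, and the log2 fold change of -0.63 (SE 0.05), a level 1.55-fold lower, lay between -0.67 and -0.59 under all 13 alternatives. Per transcript length, Mrc1 stood at 0.523 and 0.541 of the Msr1 level in WT and at 0.386 and 0.404 in anti-Act1 libraries, so it was lower relative to Msr1 as well.

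Stab1, a large class H receptor that clears acetylated lipoproteins and SPARC (chromosome 14, 31139017 to 31168651), had 373 and 361 CPM in WT and 292 and 317 CPM in anti-Act1 libraries. Its log2 fold change was -0.27 (SE 0.05), a level 1.21-fold lower, and it ran from -0.33, when anti-Act1 replicate 2 was left out, to -0.21, when anti-Act1 replicate 1 was. An exon of Stab1 overlaps Nt5dc2 on the other strand, whose reads could be shared with it where strand is not counted. Nt5dc2 itself had 92.2 and 84.9 CPM in WT and 89.4 and 95.7 CPM in anti-Act1 libraries. The other 8 genes overlap no exon of another gene in GENCODE M21.

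Of the SRCR family, Cd163, the receptor for complexes of haptoglobin and hemoglobin (chromosome 6, 124304636 to 124330529), had 79 and 78 counts in the WT libraries and 28 and 18 in the anti-Act1 libraries, or 1.22 and 1.03 against 0.453 and 0.33 CPM. Both anti-Act1 libraries were below both WT libraries, by 1.18 on the log2 scale at the nearest. The log2 fold change was -1.51 (SE 0.39), a level 2.84-fold lower, and it lay between -1.76 when anti-Act1 replicate 1 was left out and -1.30 when anti-Act1 replicate 2 was, and at -0.21 on log2(FPKM + 1) without a filter, where the added 1 exceeds its level. Cd163 was thus near 1 CPM in the WT cultures.

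Cd5l, the secreted protein AIM that macrophages release and that blocks apoptosis (chromosome 3, 87357881 to 87371074), had 89.2 and 83.9 CPM in WT and 76.1 and 80.6 CPM in anti-Act1 libraries. The nearest libraries of the groups were 0.06 apart on the log2 scale, less than the replicates of either group. The log2 fold change was -0.14 (SE 0.06), and it was -0.19 when WT replicate 2 was left out and -0.10 when WT replicate 1 was.

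**Figure D2:**
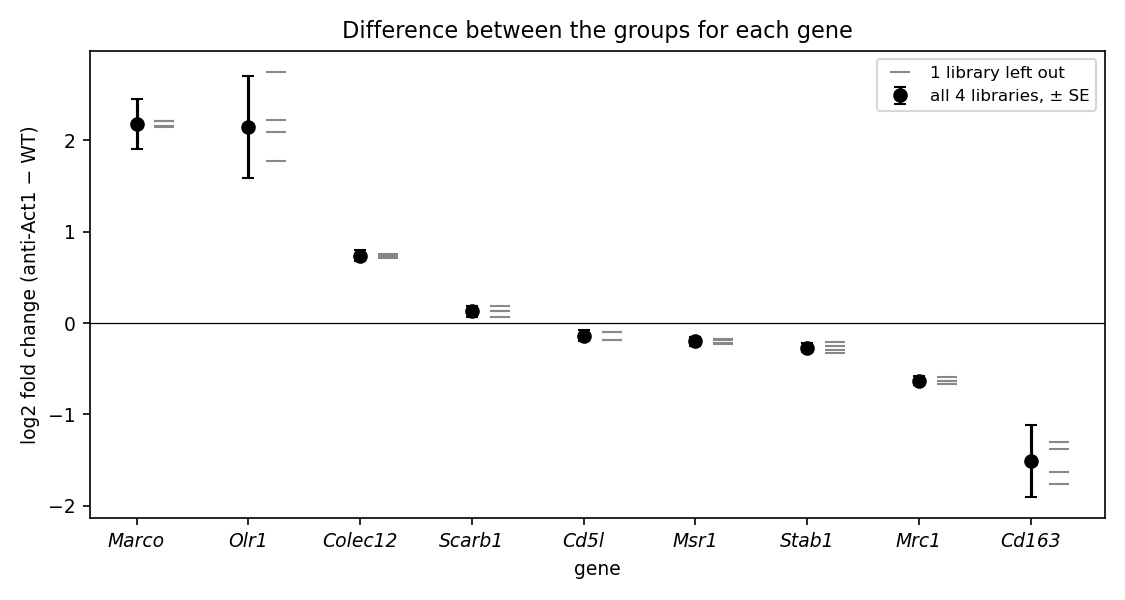
Log2 fold change of each gene between anti-Act1 and WT libraries, with its SE from edgeR (black), and the values after leaving out 1 of the 4 libraries (grey dashes). Every dash lies on the same side of 0 as its point, which groups without overlap in CPM nearly fix in advance. The spread of the dashes is widest for Olr1 (1.77 to 2.75) and Cd163 (-1.76 to -1.30).

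Levels of different genes can be compared only per length, for which the deposited FPKM (reads relative to transcript length and library size) serve. In WT libraries the order was Msr1 at 146 ± 2.82 FPKM (SD, n = 2), Mrc1 at 77.9 ± 3.27, Stab1 at 46.3 ± 0.912, Cd5l at 42.9 ± 1.7, Scarb1 at 26.5 ± 0.117, Colec12 at 15.9 ± 0.398, Marco at 0.296 ± 0.00825, Cd163 at 0.26 ± 0.031 and Olr1 at 0.0423 ± 0.0199. A gap of 53.7-fold separated Colec12 from Marco, and no neighbours in the order overlapped. In anti-Act1 libraries Msr1 led with 125 ± 5.1 FPKM, followed by Mrc1 at 49.4 ± 0.388, Cd5l at 38.1 ± 1.21, Stab1 at 37.8 ± 1.84, Scarb1 at 28.5 ± 1.38, Colec12 at 26.0 ± 0.667, Marco at 1.32 ± 0.0185, Olr1 at 0.19 ± 0.0143 and Cd163 at 0.0891 ± 0.0207. Here Cd5l and Stab1 overlapped, and no other neighbours did. The gap between Colec12 and Marco was 19.7-fold, and Olr1 and Cd163 had changed places at the bottom of the order.

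The summed FPKM of the 9 genes was 354 and 359 in WT and 308 and 305 in anti-Act1 libraries. Msr1, Mrc1 and Stab1 together made up 75.4% and 76.5% of it in WT and 69.8% and 68.7% in anti-Act1 libraries, while the share of Msr1 alone was 40.8% and 41.4% against 41.8% and 39.8% and overlapped. Marco, Olr1 and Cd163 together were 0.17% and 0.166% of the sum in WT and 0.524% and 0.521% in anti-Act1 libraries, so the genes with the largest fold changes were a small part of these receptor transcripts in both groups. Among pairs, Marco stood at 1.03 and 1.27 times the level of Cd163 in WT and at 12.6 and 17.9 times in anti-Act1 libraries. Colec12 went from 0.613 and 0.588 to 0.961 and 0.866 of the Scarb1 level.

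**Figure D3:**
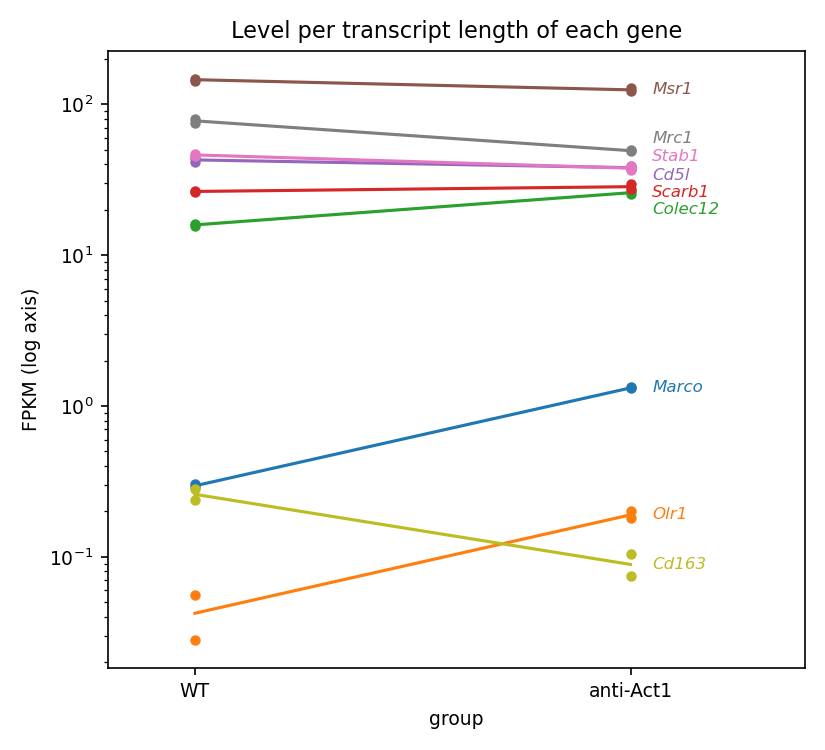
FPKM of the 9 genes in WT and anti-Act1 libraries on a log axis, with a point per library and lines between the group means. Msr1 is highest in both groups (146 and 125 FPKM), and the lines of Olr1 and Cd163 cross.

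For each of the 9 genes, the tested genes nearest to it in pattern were sought over the 4 libraries, by the Euclidean distance between centred log2(CPM + 0.1) values among 10892 genes. Nearest to Marco were Serpinb2 (distance 0.108, 14.5 and 14.6 against 53.1 and 58.3 CPM), Lox (0.153) and Acacb (0.158). Nearest to Olr1 were Aldh1l2 (0.157), Mtus2 (0.199) and Cxcl10 (0.254), and nearest to Colec12 were Map6 (0.024), Nfkbia (0.033) and Ets1 (0.034). Among the genes that were lower, Cd163 was nearest to Siglecf (0.056, 3.88 and 3.41 against 1.64 and 1.26 CPM), Vcam1 (0.212) and Rasgrp3 (0.235), and Mrc1 to Kctd12 (0.04), Arhgap19 (0.046) and Mcoln3 (0.053). Stab1 was nearest to Cd300ld, Tecpr1 and D6Wsu163e, Msr1 to Dlg4, 4930579G24Rik and Tgs1, Scarb1 to Ap5s1, Tor1a and Zcchc4, and Cd5l to Cdk9, Rap1gap2 and Scap. With 4 libraries in 2 groups, such nearness is mostly an equal difference between the groups.

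On chromosome 6, Cd163 and Olr1 lie 5.15 Mb apart with 97 protein-coding genes between them. The nearest of the genes described here to Olr1 is Clec7a, the beta-glucan receptor Dectin-1, at 6.37 kb with no protein-coding gene between. Clec7a was at 456 and 467 CPM in WT and at 349 and 350 CPM in anti-Act1 libraries and fell (log2 fold change -0.40, SE 0.05, edgeR adjusted p = 1.37e-08), opposite to its neighbour Olr1.

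Other scavenger receptors were then set beside the 9, from a list of 25, of which 24 were in the table and 16 were tested. Of these, 4 rose and 4 fell at an adjusted p under 0.05, beside 10.9% and 9.76% of all tested genes, and 3 and 5 did with library totals alone as scaling. Their median log2 fold change was -0.03 beside -0.005 over all genes, also with Cd207 at its bound. Cd36, the class B receptor for oxidized lipoproteins and fatty acids, was at 966 and 1018 CPM in WT and at 992 and 959 CPM in anti-Act1 libraries (log2 fold change -0.02, SE 0.05, edgeR adjusted p = 0.792), and Cd68 at 1375 and 1404 against 1298 and 1425 CPM (-0.03, adjusted p = 0.748). The groups overlapped for both of these abundant receptors, and their signs turned when 1 library was left out.

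Stab2, the paralog of Stab1 and a hyaluronan receptor, fell from 8.7 and 9.68 CPM to 4.1 and 4.21 CPM (-1.15, SE 0.13, edgeR adjusted p = 1.43e-09), the same direction as Stab1. Cd44, the other hyaluronan receptor of the list, fell from 650 and 714 to 584 and 571 CPM (-0.24, adjusted p = 0.000372). Scarf2 rose from 2.49 and 2.07 to 4.19 and 4.01 CPM (0.85, SE 0.18, adjusted p = 0.000277) and Scarf1, a class F receptor for acetylated lipoproteins, from 61.3 and 60.2 to 74.9 and 78.5 CPM (0.34, adjusted p = 1.02e-05). Smaller rises were those of Scarb2, a lysosomal class B member (0.19, adjusted p = 0.00423, and 0.18 with adjusted p = 0.0607 without anti-Act1 replicate 1), and of Lgals3bp, a secreted SRCR protein (0.17, adjusted p = 0.0142, and 0.13 and 0.09 and past the threshold in neither case without WT replicate 1 or anti-Act1 replicate 2). Cd207, a lectin named after its values were seen, had 13 and 23 counts in WT and 2 and 0 in anti-Act1 libraries, at least 4.87-fold lower.

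**Figure D4:**
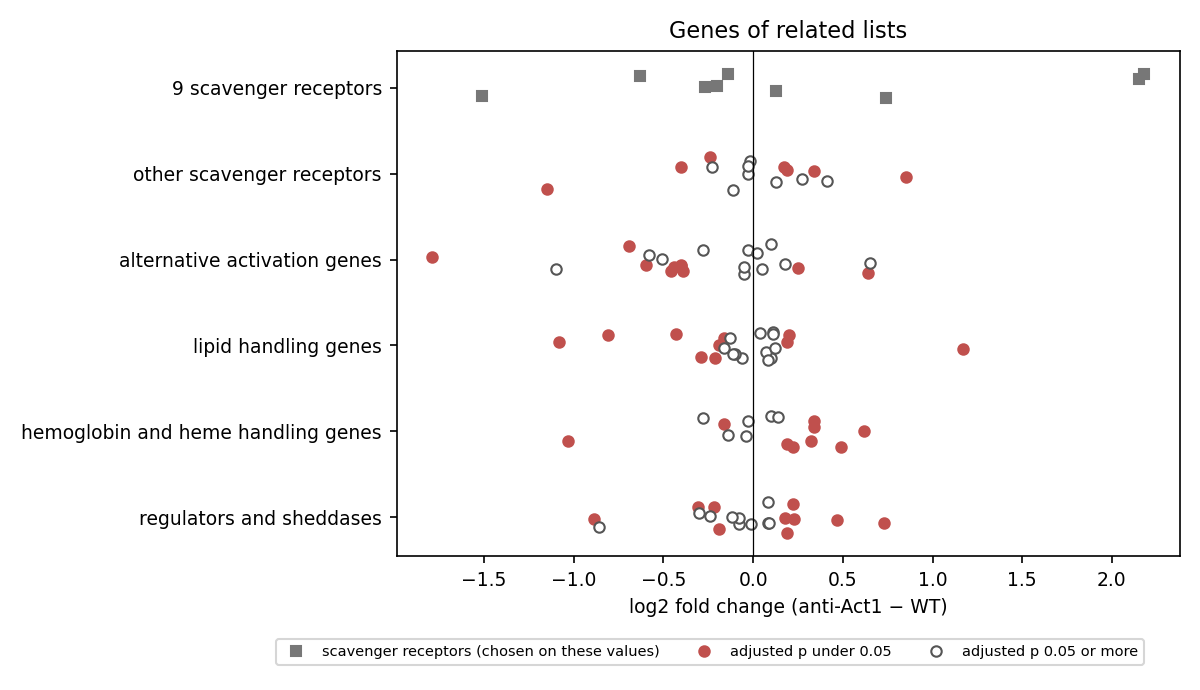
Log2 fold changes of the 9 genes (grey squares, chosen on these values) and of the tested genes of 5 lists, filled red where the edgeR adjusted p was under 0.05 and open otherwise. Vertical scatter within a list has no meaning, and Cd207 is left out as its value is a bound. The medians run from -0.34 for alternative activation genes, a list that also holds genes of resident macrophages, to 0.14 for hemoglobin and heme handling genes.

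Genes tied to alternative activation or to resident macrophages, the settings in which Cd163 and Mrc1 serve as markers, were read from a list of 30. Of 22 tested, 2 rose and 8 fell (10.9% and 9.76% of all tested genes), with a median of -0.34 beside -0.005 over all genes. F13a1, coagulation factor XIII of macrophages, fell from 139 and 138 to 85.1 and 85.8 CPM (-0.69, SE 0.05, edgeR adjusted p = 9.51e-15), close in size to Mrc1. Gas6, the bridge to phosphatidylserine on dying cells, fell from 225 and 220 to 144 and 150 CPM (-0.60, adjusted p = 5.18e-13). The complement gene C1qa fell from 174 and 175 to 131 and 122 CPM (-0.46, adjusted p = 1.6e-09), and the folate receptor Folr2 from 58.3 and 53.8 to 43.2 and 39.4 CPM (-0.44, adjusted p = 4.93e-07). The others that fell were C1qb, C1qc, Igf1 and Vsig4. Arg1, the arginase that depletes arginine and a main label of alternative activation, rose instead, from 1534 and 1500 to 2381 and 2338 CPM (0.64, adjusted p = 1.12e-14), and so did Il1rn, the antagonist of the IL-1 receptor (0.25, adjusted p = 0.000168). Of the 12 tested genes not past the threshold, Clec10a (0.05), Il4ra (-0.03), Tgm2 (-0.05) and Cd200r1 (-0.05) differed little. Chil3 was at 0.65 and Cbr2 at -1.10. Not tested for low counts were Retnla, with 0 counts in all 4 libraries, Ccl24, Ccl17, Mgl2, Lyve1, Cd209a, Cd209d and Cd209f. The genes of the list thus did not share a direction.

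Of 24 genes that handle the lipid which class A and B receptors take up, 22 were tested, and 3 rose and 7 fell, with a median of -0.08, where 10.9% of all tested genes rose and 9.76% fell. With library totals alone as scaling 2 rose and 8 fell. Lpl, the lipase that frees fatty acids from lipoproteins, fell from 532 and 592 to 268 and 265 CPM (-1.08, edgeR adjusted p = 1.87e-21). Pparg, a nuclear receptor that drives lipid uptake genes, fell from 20.3 and 21.7 to 11.9 and 12.1 CPM (-0.81, SE 0.09, adjusted p = 2.16e-10), Cyp27a1 by 0.43 on the log2 scale (adjusted p = 4.28e-07) and Apoe, the apolipoprotein, from 28689 and 27001 to 22432 and 23168 CPM (-0.29, adjusted p = 5.83e-06). Apoe was past the threshold in no limma fit (-0.31, limma adjusted p = 0.0685 on filtered log2(FPKM + 1)). Vldlr, a lipoprotein receptor outside the scavenger classes, rose from 8.26 and 8.43 to 18.7 and 18.8 CPM (1.17, SE 0.09, adjusted p = 5.02e-14). Mylip, a ubiquitin ligase of cholesterol homeostasis, was past the threshold by little (0.20, adjusted p = 0.0102) and lost this without anti-Act1 replicate 1 (0.16). Abca1, the cholesterol exporter, was at 981 and 1065 against 1081 and 1115 CPM (0.10, adjusted p = 0.162, and 0.16 with adjusted p = 0.0329 without WT replicate 2).

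Downstream of Cd163 lie heme breakdown and iron handling. Of 15 such genes tested, 7 rose and 2 fell, against 10.9% and 9.76% of all tested genes, with a median of 0.14, and 6 rose and 3 fell with library totals alone as scaling. Hmox1, which breaks heme down, rose from 694 and 669 to 952 and 959 CPM (0.49, edgeR adjusted p = 7.08e-11), and the heme transporter Slc48a1 from 251 and 252 to 320 and 315 CPM (0.34, adjusted p = 9.06e-07). Iron entry genes rose as well, Tfrc, the transferrin receptor, from 76.3 and 77.1 to 120 and 115 CPM (0.62, adjusted p = 8.78e-13) and Slc11a2 from 81.8 and 77.1 to 99.6 and 102 CPM (0.34, adjusted p = 3.68e-06). Slc40a1, ferroportin and the only known iron exporter, fell from 131 and 134 to 67.8 and 62.5 CPM (-1.03, SE 0.06, adjusted p = 6.04e-20). Bach1, the repressor of Hmox1, had a log2 fold change of -0.16 (adjusted p = 0.0196), which was no longer past the threshold in 3 of the 4 fits with a library left out, those without WT replicate 2 (-0.12) and without either anti-Act1 replicate (-0.16 in both).

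Last, a list of 20 regulators and sheddases was read, all of them tested. It held transcription factors, sheddases and genes that act on such proteins, among them Keap1, Rhbdf1, Rhbdf2 and Timp3. Of these, 6 rose and 4 fell, with a median of -0.04. Over all tested genes the shares were 10.9% and 9.76%. Spi1, which encodes PU.1, was at 355 and 354 CPM in WT and at 349 and 356 CPM in anti-Act1 libraries (-0.01, edgeR adjusted p = 0.931), and Nfe2l2 at 347 and 357 against 334 and 333 CPM (-0.08, adjusted p = 0.306). Ets1, also among the genes nearest to Colec12, rose from 21.9 and 21.8 to 36.7 and 35.6 CPM (0.73, adjusted p = 1.24e-11), Klf4 by a log2 fold change of 0.47 (adjusted p = 8.83e-07) and Jun by 0.23 (adjusted p = 0.000374). Adam17, the protease that sheds CD163 from the cell surface, rose from 338 and 339 to 391 and 400 CPM (0.22, adjusted p = 0.00065). Shedding acts on the protein, which was not measured in these libraries.

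Cebpa fell from 162 and 158 to 133 and 126 CPM (-0.31, edgeR adjusted p = 1.24e-05). Cebpb was at 351 and 212 CPM in WT and at 170 and 133 CPM in anti-Act1 libraries (-0.89, edgeR adjusted p = 1.09e-09, but 0.118 by DESeq2), and the WT libraries differed from each other widely. The value was -0.48 when WT replicate 1 was left out and -1.21 when WT replicate 2 was. Tfeb was at -0.22 (adjusted p = 0.0124), with -0.20 and -0.17 and past the threshold in neither case without WT replicate 2 or anti-Act1 replicate 2. Maf, a transcription factor of resident macrophages, was at 313 and 359 CPM in WT and at 306 and 283 CPM in anti-Act1 libraries (-0.19, adjusted p = 0.01). The value of Maf was -0.09 without WT replicate 2 and -0.13 without anti-Act1 replicate 2, and past the threshold in neither.

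Markers of other leukocytes were low throughout. Of 6 neutrophil markers, S100a8 was higher and S100a9 and Retnlg were lower at the threshold in anti-Act1 libraries, and the list summed to 5.92 to 6.10 CPM in WT and 6.15 to 6.96 CPM in anti-Act1 libraries. Dendritic cell markers summed to 4.37 to 5.31 and 4.26 to 4.89 CPM, lymphocyte markers to 0.511 to 0.514 and 0.22 to 0.518 CPM, and fibroblast markers, with Pdgfra and Lum at no more than 3 counts, to 0.184 to 0.356 and 0.162 to 0.476 CPM. Marco, Olr1 and Cd163, at 0.0929 to 2.69 CPM, lay below the neutrophil and dendritic cell sums, and the part of a few cells of another kind in them was not tested. Of the macrophage markers, Cd14 was higher and Itgam and Mertk were lower at the threshold.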

How the data were processed

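RNA sequencing was analysed in 4 libraries. Before alignment of the read pairs with TopHat the authors discarded reads of low quality or with adapter or unknown bases, and they deposited whole counts of reads per gene without normalization. The authors also deposited FPKM, and each FPKM value is the count over gene length and column sum. The submitters' processing notes name Bowtie 0.12.2, HTSeq 0.6.1 and the builds mm8 and mm10, without roles. Strandedness of the counting is not given in the sources used here.

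The 9 genes, the 5 gene lists, the marker lists and the tests were chosen with earlier results of these data known. Counts were fitted in edgeR 4.0.16 (R 4.3.3) after TMM normalization and filterByExpr, with group as the only term, by the quasi-likelihood F test (two-sided) and Benjamini-Hochberg adjustment over 12494 genes and a threshold of 0.05. An exact permutation test of 2 libraries against 2 cannot go below p = 0.333. Of each list, named genes were the 4 largest rises and 4 largest falls past the threshold with a mean of at least 1 CPM in a group and no overlap between groups, and Cd36, Cd68, Arg1, Hmox1, Abca1, Maf, Spi1, Cebpb, Nfe2l2, Adam17 and Traf3ip2 whatever their values. Some genes that meet these criteria are not reported here. Other genes named were chosen after their values were seen.

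The 13 alternatives left out each library in turn, added the replicate number as a block, scaled by library totals alone or by DESeq2's size factors, dropped the filter or asked for 10 counts in each library, and replaced edgeR by DESeq2 1.42.0 or by limma 3.58.1 on log2(FPKM + 1) or log2(FPKM + 0.1), where FPKM reached 1 in 2 libraries, or on log2(FPKM + 1) of all genes. The fits were also run on simulated counts with the same spread for every gene and changes only in genes with many reads. That run says nothing about genes with few reads or a wide spread. Coordinates and promoters come from RefSeq (GRCm38.p6), 6 of the 9 genes having a promoter entry, and exon overlaps from GENCODE M21. Replicates of a group differed beyond sampling noise (chi-square per gene 10.8 in WT and 7.447 in anti-Act1), so no column was a copy of another. This cannot tell libraries of the same animal or RNA from libraries of different animals.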

Additional observations from a re-analysis of the deposited data

How the results depend on the processing

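The 9 genes gave 112 values under the 13 alternatives, of which 0 changed sign. They were selected on this contrast, all alternatives reuse the same libraries, and no gene's groups overlapped in CPM. A stable sign was thus nearly fixed in advance, and nothing is read from it. Olr1 was not tested with at least 10 counts in every library, and neither Olr1 nor Cd163 with the FPKM filter. For 41 other genes under the naming rule, 487 of 533 values stayed, 40 lost and 2 gained the threshold, and 4 changed sign: with a library left out, Cd36 ran from -0.06 to 0.01 (0.01 without WT replicate 2 and 0.00 without anti-Act1 replicate 2), Cd68 from -0.1 to 0.04 (0.04 without anti-Act1 replicate 1) and Spi1 from -0.02 to 0.01 (0.01 without anti-Act1 replicate 1), all 3 genes being below the threshold in every fit. Of all genes, 2586 were past the threshold, 1671 to 2543 with a library left out (1671 without anti-Act1 replicate 2, 1712 when replicate 1 was left out) and 1091 with unfiltered limma on log2(FPKM + 1). That setting also gave 5 other scavenger receptors, 5 lipid handling genes, 5 hemoglobin and heme handling genes and 5 regulators and sheddases, and limma on log2(FPKM + 0.1) gave 6 lipid handling genes. The cause was not tested. With the replicate number as a block, 2406 genes and 7 of the 9 were past the threshold, but same-numbered libraries share only a number (correlation of their deviations -0.0334 over 12494 genes). Depth limits Marco, Olr1 and Cd163, which had 6 to 161 counts a library, and 2 libraries a group limit the errors of all.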
